A study of Mus musculus with 32 samples.

Results

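The genes followed here are 10 immediate early genes of the AP-1 and MYC regulatory network in mouse liver: Fos, Fosb, Fosl2, Jun, Junb, Jund, Egr1, Myc, Maff and Ier3. They were taken by gene name from the array annotation, which holds all 10, out of 19204 genes that passed a filter on dim probes. Immediate early genes are transcribed within minutes of a stimulus from factors already in the cell. FOS and JUN family proteins pair through leucine zippers to form AP-1, which binds DNA as a dimer. MYC pairs with MAX at E-box sites and drives growth genes. In liver these genes are known for their rapid response to partial hepatectomy, to cytokines and to endotoxin, with MAP kinases and NF-kB as the best known upstream signals.

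The arrays compared livers of mice that carried E2f1 (strain B6x126 F2, E2F1+/+, called WT here) with livers of mice that lacked it (strain B6;129, genotype E2F1-/-, called KO here). E2F1 is a transcription factor best known for cell cycle genes. Mice had received saline or lipopolysaccharide (LPS), the endotoxin of gram-negative bacteria, by a systemic route. There were 6 WT and 6 KO mice on saline, 4 WT and 4 KO mice at 6 h of LPS, and 6 WT and 6 KO mice at 20 h of LPS, 32 mice in all with 1 array each. Both saline groups were labelled 20 h, so the 6 h groups differed from them in time after injection too. WT and KO mice did not share a strain label, so genotype and strain background cannot be told apart, and sex, LPS dose and the deleted part of E2f1 are not given in the sources used here.

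Levels are log2 of the array signal minus the 75th percentile of the same array, so 0 is the level that 1 in 4 probes exceed and 1 unit is a doubling. That percentile ran from 281 to 1144 signal units, and 20203 to 28891 spots per array were well above background. The E2f1 probe did not fall in KO: its mean was -3.35 ± 1.01 (SD, n = 6) in WT saline and -3.23 ± 0.81 (SD, n = 6) in KO saline, and -3.83 ± 0.43 (SD, n = 4) and -2.30 ± 0.56 (SD, n = 4) at 6 h of LPS. At 20 h it was -2.05 ± 1.57 (SD, n = 6) in KO and -5.57 ± 0.88 (SD, n = 5) in WT, where only 2 arrays measured it well above background. Whether that probe lies in the deleted part is not given, so it checks no label. The extraction note in the labels names lung while the tissue label says liver. The summed signal of 5 hepatocyte markers was 930 to 2503 times the 75th percentile, against 0.0692 to 2.44 for 3 lung epithelial markers, leaving out the 3 arrays named next.

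Of the 32 arrays, 3 stood apart from their groups. Each array was placed on a scale that runs from 0, the mean of WT saline, to 1, the mean of WT at 6 h of LPS. The array labelled KO saline replicate 1 lay at 0.885 while the other 5 of its group lay between -0.005 and 0.057. The array labelled KO LPS 6 h replicate 1 lay at 0.126 while the other 3 lay between 0.897 and 0.977. On the same scale built for 20 h, KO LPS 20 h replicate 4 lay at 0.357 and the other 5 between 0.961 and 1.06. So the array labelled KO saline replicate 1 lay near the LPS arrays and the array labelled KO LPS 6 h replicate 1 near the saline arrays, against their labels, and both were on the same slide. Whether these samples were exchanged was not tested, so KO values over all 32 arrays may mix treatments. The scale uses the genes called in WT, the 10 genes among them where called, so leaving these arrays out selects on the LPS response. Results that use them are given with and without them. Without KO saline replicate 1 and without the 6 h array just named there are 30 arrays.

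Promoter sequence is shown for Fos, Fosl2, Jun and Ier3, which were among the genes that rose in WT at both times, so that their control regions can be set beside each other. Each run is the 250 bases before the transcription start in RefSeq's table for mouse build GRCm38.p6, read 5′ to 3′ on the gene's strand, and capitals mark the motif matches described below.
Fos: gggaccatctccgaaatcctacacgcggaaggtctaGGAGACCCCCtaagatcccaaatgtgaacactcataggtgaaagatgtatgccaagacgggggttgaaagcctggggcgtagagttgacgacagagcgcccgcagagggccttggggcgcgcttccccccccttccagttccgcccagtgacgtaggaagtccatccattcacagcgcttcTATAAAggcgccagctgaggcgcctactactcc
Fosl2: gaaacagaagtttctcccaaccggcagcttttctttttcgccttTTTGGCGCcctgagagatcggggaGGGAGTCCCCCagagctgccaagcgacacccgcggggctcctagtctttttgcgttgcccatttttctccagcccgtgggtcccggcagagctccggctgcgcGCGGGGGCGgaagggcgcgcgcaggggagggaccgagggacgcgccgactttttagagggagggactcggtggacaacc
Jun: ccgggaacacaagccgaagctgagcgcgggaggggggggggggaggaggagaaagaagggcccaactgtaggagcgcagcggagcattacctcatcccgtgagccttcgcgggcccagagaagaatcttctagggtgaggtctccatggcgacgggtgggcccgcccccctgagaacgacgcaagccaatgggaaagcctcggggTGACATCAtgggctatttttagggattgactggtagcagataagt
Ier3: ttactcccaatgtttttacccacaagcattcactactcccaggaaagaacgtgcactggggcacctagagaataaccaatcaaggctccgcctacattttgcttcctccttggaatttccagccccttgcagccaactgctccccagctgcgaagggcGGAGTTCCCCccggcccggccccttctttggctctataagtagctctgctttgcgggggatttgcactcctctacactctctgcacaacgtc
The Fos run is chr12:85473640-85473889 on the plus strand, the Fosl2 run chr5:32136222-32136471 on the plus strand, the Jun run chr4:95052223-95052472 on the minus strand and the Ier3 run chr17:35821463-35821712 on the plus strand. Capitals in Fos mark an NF-kB type match 214 bases before the start and the TATA box (TATAAA) 33 bases before it. In Fosl2 they mark an E2F match (TTTGGCGC) 206 bases before the start, overlapping NF-kB type matches 182 bases before it and an EGR match (GCGGGGGCG) 79 bases before it. In Jun they mark TGACATCA, the AP-1-like element known from the Jun promoter, 45 bases before the start. In Ier3 they mark an NF-kB type match 92 bases before the start.

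The table held 10 windows for 8 of the 10 genes, 3 of them for Maff, each reaching from 250 bases before to 50 after the start. Both strands were searched. An NF-kB type match lay in windows of 5 of the 8 genes (Fos, Fosb, Fosl2, Maff and Ier3), and 8.46% of all 32851 windows in the table held such a match. EGR matches (GCGTGGGCG or GCGGGGGCG) lay in windows of Fosb, Fosl2 and Maff, with 3.47% of all windows holding the motif. The AP-1 site TGACTCA and the CArG box were in none of the 10 windows, and in 5.20% and 1.63% of all windows. TGACATCA was searched after the Jun sequence was read. It also lay in a Maff window, and 3.62% of all windows held it. E2F matches (TTTCGCGC or TTTGGCGC) were in a window of Fosl2 and in 0.813% of all windows. Maff windows also held the cAMP response element TGACGTCA (1.79% of all windows), the E-box CACGTG (7.15%) and the STAT motif TTCCNGGAA (1.15%). TATAAA was in windows of Fos and Junb and in 13.6% of all windows. These are letter matches, not measured binding sites. The shares count windows and not genes, and Maff had 3 windows in which a match could lie.

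After 6 h of LPS, 8 of the 10 genes rose in WT liver, where 12.5% of the 19204 genes tested rose (limma on all 32 arrays, Benjamini-Hochberg adjusted p under 0.05). The increase was 50.8-fold for Ier3, 7.05-fold to 12.9-fold for Fos, Fosl2, Jun, Egr1, Myc and Maff, and 4.62-fold for Junb. Fosb and Jund did not pass. The median log2 change of the 10 was 3.15, against 0.01 over all genes tested. In 9 of the 10 genes every LPS array exceeded every saline array, Fosb being the exception, and this held for 11.7% of all genes tested.

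**Figure D1:**
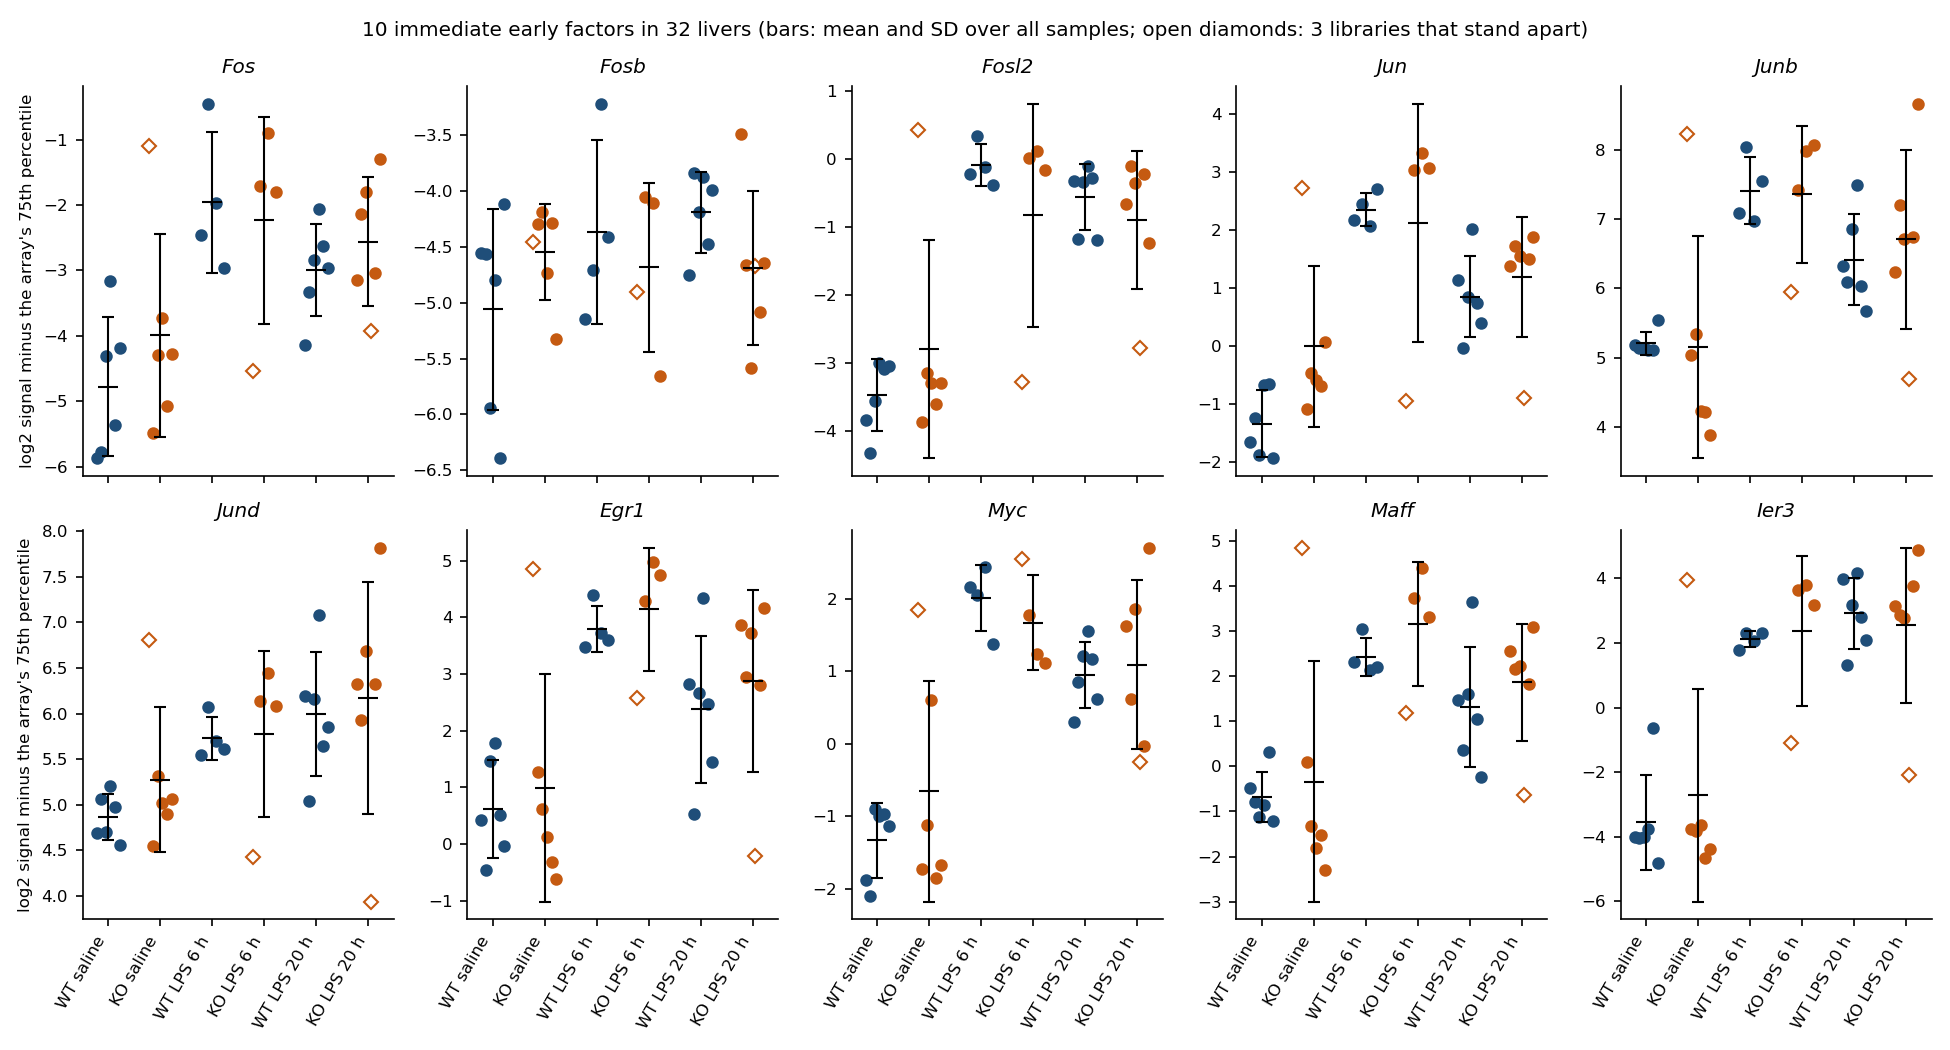
Level of each of the 10 genes in every liver, in log2 units with the array's own 75th percentile set to 0, by group. Points are single arrays, bars are the mean and SD over all arrays of a group, and open diamonds are the 3 arrays that stood apart. In the WT groups every gene but Fosb sat higher at 6 h of LPS than in any saline array, and the diamonds lie away from their own groups in most panels.

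Fos encodes the partner that cannot pair with itself and needs a JUN protein to bind DNA. Its levels in WT saline ran from -5.87 to -3.17 with a median of -4.84 (n = 6), and in WT at 6 h of LPS they were -2.45, -0.45, -1.97 and -2.96. The LPS arrays were all higher, without overlap. The log2 change was 2.82 (SE 0.72, limma adjusted p = 0.0039). The probe was well above background on 3 of 6 saline arrays and on 4 of 4 LPS arrays, so the saline level is less firmly measured than the LPS level.

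Fosl2 (FRA-2), a FOS family member without the strong activation domain of FOS, ran from -4.31 to -2.996 with a median of -3.32 in WT saline. It stood at -0.22, 0.34, -0.11 and -0.38 at 6 h of LPS. The 2 groups were separated by a gap wider than the range of either. The log2 change was 3.38 (SE 0.65, limma adjusted p = 0.00027). Its other probe, well above background on 21 of 32 arrays, gave a mean difference of 1.04 in the same direction.

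Fosb, the remaining FOS family member, was near the limit of the array. Its probe was well above background on 12 of 32 arrays and on 1 to 4 arrays in each group. WT saline ran from -6.39 to -4.11, and WT LPS 6 h read -5.14, -4.71, -3.22 and -4.41, so the groups overlapped. The log2 change of 0.69 (SE 0.42, 95% interval -0.17 to 1.56) did not pass (limma adjusted p = 0.233).

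Jun encodes the strongest activator among the JUN proteins and can pair with itself. WT saline levels ran from -1.93 to -0.65 with a median of -1.45, and WT LPS 6 h levels were 2.17, 2.45, 2.08 and 2.71. The 4 LPS arrays lay close together and far above saline. Jun changed by 3.69 log2 units (SE 0.69, limma adjusted p = 0.00018). The probe, at chr4:94715864-94715923 on the minus strand in the mm9 positions of the array files, was spotted 10 times and was well above background on all 32 arrays.

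Junb, known for restraining JUN at some targets, was tight in WT saline, from 5.11 to 5.54 with a median of 5.14. At 6 h of LPS it read 7.09, 8.04, 6.97 and 7.55. No saline array reached the lowest LPS array. The log2 change was 2.21 (SE 0.63, limma adjusted p = 0.0088), and the other Junb probe gave a mean difference of 3.27.

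Jund is the JUN protein present in resting cells. It went from 4.56 to 5.20 in WT saline, and it read 5.54, 6.07, 5.70 and 5.61 at 6 h of LPS. The groups did not overlap, but the log2 change of 0.86 (SE 0.50, 95% interval -0.15 to 1.88) did not pass (limma adjusted p = 0.202). With all 3 arrays that stood apart left out, the same change had an SE of 0.31 and passed (limma adjusted p = 0.0293).

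Egr1, a zinc finger factor induced through SRF and its ETS partners, ran from -0.46 to 1.77 with a median of 0.47 in WT saline. It stood at 3.48, 4.39, 3.72 and 3.60 at 6 h of LPS. All LPS arrays were higher than all saline arrays. Egr1 changed by 3.18 log2 units (SE 0.84, limma adjusted p = 0.0050).

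Myc ran from -2.11 to -0.90 with a median of -1.07 in WT saline and stood at 2.17, 2.05, 2.45 and 1.37 at 6 h of LPS. These groups were again apart. Myc changed by 3.34 (SE 0.58, limma adjusted p = 9.22e-05), which had the lowest adjusted p of the 10 genes. Its other probes gave mean differences of 3.42 and 2.80.

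Maff encodes a small MAF protein, which binds DNA but has no activation domain of its own. In WT saline it ran from -1.21 to 0.32, and it read 2.32, 3.06, 2.15 and 2.20 at 6 h of LPS. Maff changed by 3.12 (SE 0.94, limma adjusted p = 0.0124). Ier3 is no DNA-binding factor but an early response protein that modulates cell death and ERK signalling, known as a target of NF-kB. It ran from -4.82 to -0.64 with a median of -4.02 in WT saline, with replicate 5 at -0.64 and the other 5 between -4.82 and -3.75. At 6 h of LPS it read 1.79, 2.30, 2.06 and 2.31. Every LPS array exceeded the high saline array. Ier3 changed by 5.67 (SE 1.29, limma adjusted p = 0.00137), and the probe was well above background on 4 of 6 saline arrays.

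At 20 h of LPS, 6 of the 10 genes were above saline in WT, namely Fos, Fosl2, Jun, Jund, Myc and Ier3, where 16.3% of all genes tested rose. Ier3 was 88.7-fold higher, Fosl2 7.50-fold, Myc 4.87-fold, Jun 4.57-fold, Fos 3.45-fold and Jund 2.19-fold. Egr1, Maff, Junb and Fosb missed the threshold with limma adjusted p-values between 0.0614 and 0.0931, at an unadjusted p under 0.05 in each case. All 10 changes were positive, with a median log2 change of 1.89 against -0.03 over all genes tested. Every LPS array exceeded every saline array in 5 genes, Fosl2, Jun, Junb, Myc and Ier3, and in 9.25% of all genes tested.

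Levels in WT at 20 h of LPS spread more widely than at 6 h for several genes. Ier3 ran from 1.32 to 4.15 with a median of 2.997, a log2 change of 6.47 (SE 1.16, limma adjusted p = 7.21e-05). Fosl2 ran from -1.19 to -0.10 with a median of -0.32, a log2 change of 2.91 (SE 0.58, limma adjusted p = 0.00027). Both stayed wholly above saline.
Jun ran from -0.04 to 2.02 with a median of 0.79, a log2 change of 2.19 (SE 0.61, limma adjusted p = 0.00584). Myc ran from 0.31 to 1.56 with a median of 1.01, a log2 change of 2.28 (SE 0.52, limma adjusted p = 0.00097). Neither overlapped saline.
Fos ran from -4.14 to -2.06, and its lowest LPS array was below its highest saline array (log2 change 1.79, SE 0.65, limma adjusted p = 0.0308). Jund ran from 5.04 to 7.08, overlapping saline at the lower end (log2 change 1.13, SE 0.44, limma adjusted p = 0.0462). These calls lay close to the threshold: leaving out any of 6 WT arrays raised the adjusted p of Fos to between 0.0525 and 0.0754, and Jund lost its call in 21 of the 32 single-array removals, arrays of other groups included, reaching 0.126 without WT LPS 20 h replicate 4.
Egr1 ran from 0.53 to 4.34 and Maff from -0.23 to 3.65, both with WT LPS 20 h replicate 4 as the highest array. Their log2 changes were 1.77 (SE 0.75) and 2.002 (SE 0.84). Junb ran from 5.68 to 7.49, above all saline arrays, with a log2 change of 1.21 (SE 0.57). On 30 arrays Egr1, Maff and Junb passed and 9 of the 10 genes rose at 20 h in WT, where 18.8% of all genes rose. On those 30 arrays the count at 6 h was 8, where 14.2% of all genes rose. The WT arrays are the same in both fits, and only the shared estimate of spread differs.

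**Figure D2:**
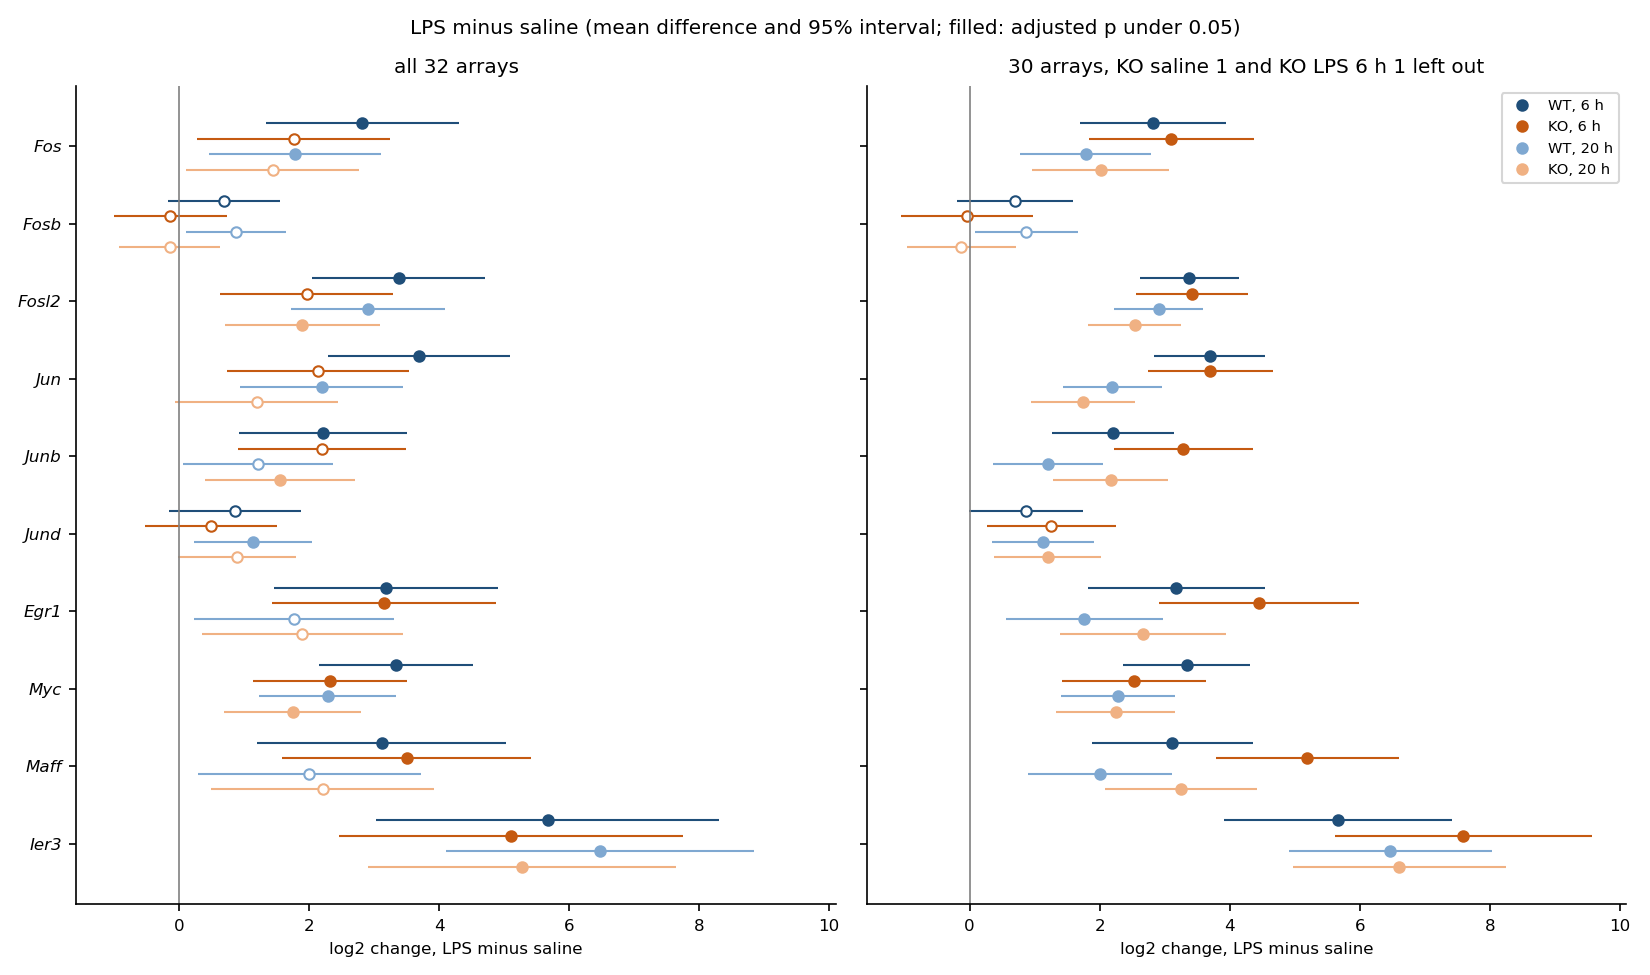
Log2 change from saline to LPS for each gene at 6 h and 20 h in WT and KO, as mean differences with 95% intervals from limma, on all 32 arrays (left) and on 30 arrays (right). Filled points passed an adjusted p under 0.05. On the left 8 WT points are filled at 6 h and 4 KO points, and on the right 8 in each genotype at 6 h.

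Between 6 h and 20 h of LPS none of the 10 genes passed in WT, while 34.3% of all genes tested changed (limma, 1 of the 10 at an unadjusted p under 0.05). The order of WT levels was 6 h, then 20 h, then saline for Fos, Fosl2, Jun, Junb, Egr1, Myc and Maff, and 20 h, then 6 h, then saline for Fosb, Jund and Ier3. Apart from Jun, the 6 h and 20 h arrays of each gene overlapped in WT. Of all genes tested, 14.2% had every 20 h array below every 6 h array, as Jun did. The log2 difference of Jun, 20 h minus 6 h, was -1.501 (95% interval -2.90 to -0.10), with a limma adjusted p of 0.0903 on all 32 arrays and 0.00508 on 30 arrays. It was the 1 gene of the 10 that fell on 30 arrays in WT, where 19.8% of all genes fell. For Ier3 the difference, 20 h minus 6 h, was 0.80 with a 95% interval from -1.84 to 3.45.

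In KO liver fewer of the 10 genes rose on all 32 arrays than on 30 arrays. On all 32 arrays 4 of the 10 genes rose at 6 h (Egr1, Myc, Maff and Ier3), where 1.55% of all genes tested rose, with limma adjusted p-values between 0.0451 and 0.0469. On 30 arrays 8 of the 10 rose, all but Fosb and Jund, where 12.8% of all genes rose. Since the arrays left out were picked by their response to LPS, the values on 30 arrays are a description of the remaining arrays and not independent evidence of the rise. The 4 calls on all arrays rest on adjusted p-values close to 0.05: leaving out a single array gave between 0 and 8 calls, with 8 when the array left out was KO saline replicate 1, or was replicate 1 of KO LPS 6 h.

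Ier3 shows how far those 2 arrays lay from their groups. In KO saline it read 3.95 in replicate 1 and from -4.67 to -3.63 in the other 5 arrays. In KO at 6 h of LPS it read -1.10 in replicate 1 and 3.65, 3.79 and 3.17 in the others. The log2 change was 5.10 (SE 1.29, limma adjusted p = 0.0451) on all arrays and 7.59 (SE 0.96, limma adjusted p = 7.88e-07) on 30 arrays.
Jun read 2.73 in KO saline replicate 1 against -1.08 to 0.07 in the other 5, and -0.95 in KO LPS 6 h replicate 1 against 3.04, 3.34 and 3.07. Its log2 change went from 2.13 (SE 0.69, limma adjusted p = 0.0726) to 3.70 (SE 0.47, limma adjusted p = 7.54e-07). The latter is close to the 3.69 of WT.
Fosl2 read 0.43 in KO saline replicate 1 against -3.86 to -3.14, and -3.28 in KO LPS 6 h replicate 1 against 0.01, 0.12 and -0.17. Its change went from 1.96 (SE 0.65) to 3.42 (SE 0.42, limma adjusted p = 4.83e-07). Maff read 4.86 in KO saline replicate 1 against -2.30 to 0.09, and 1.19 in KO LPS 6 h replicate 1 against 3.74, 4.40 and 3.33. Its change went from 3.50 (SE 0.94) to 5.20 (SE 0.68, limma adjusted p = 1.37e-06).
Myc did not share the whole pattern. It was high in KO saline replicate 1 (1.84 against -1.85 to 0.60) but was also the highest of its group in KO LPS 6 h replicate 1 (2.56 against 1.78, 1.24 and 1.12). Its change was 2.33 (SE 0.58) on all arrays and 2.53 (SE 0.54, limma adjusted p = 0.00064) on 30 arrays. Egr1 in KO LPS 6 h replicate 1, at 2.57, lay below the others (4.29, 4.97 and 4.74) but above the other 5 KO saline arrays (-0.61 to 1.27).
Fos, Junb and Jund went the same way as Jun. On 30 arrays Fos changed by 3.10 (SE 0.62, limma adjusted p = 0.000318) and Junb by 3.29 (SE 0.52, limma adjusted p = 1.85e-05). The Jund change of 1.25 (SE 0.48) had an adjusted p of 0.0517. Fosb changed by -0.04 (95% interval -1.05 to 0.97), with its probe at or near background.

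At 20 h of LPS in KO, Fosl2, Junb, Myc and Ier3 rose on all 32 arrays, where 11.7% of all genes tested rose. The log2 changes were 1.90 (SE 0.58, limma adjusted p = 0.0158) for Fosl2, 1.55 (SE 0.57, limma adjusted p = 0.0411) for Junb, 1.75 (SE 0.52, limma adjusted p = 0.0129) for Myc and 5.27 (SE 1.16, limma adjusted p = 0.00125) for Ier3. On 30 arrays 9 of the 10 rose, all but Fosb, where 16% of all genes rose.
KO LPS 20 h replicate 4 was low for most of these genes. It read -2.09 for Ier3 against 2.76 to 4.87 in the other 5 arrays, -0.90 for Jun against 1.37 to 1.87, -0.21 for Egr1 against 2.81 to 4.17 and -0.63 for Maff against 1.82 to 3.09. For Junb it read 4.70 against 6.23 to 8.67, and for Jund 3.94 against 5.93 to 7.82. It stood wholly outside its group in each of these genes.
With that array left out as well, 9 of the 10 genes rose on 29 arrays, where 19% of all genes rose. In 8 of the 10 every LPS array then exceeded every saline array, as in 13.1% of all genes tested. This held for 0 of the 10 on all 32 arrays and for 2 on 30 arrays, and for 290 and 1278 of the 19204 genes tested. The arrays left out were picked by their response to LPS, so results on 30 and 29 arrays are not independent evidence of the rise. On 29 arrays the log2 changes were 7.54 (SE 0.58) for Ier3, 3.75 (SE 0.50) for Maff, 3.28 (SE 0.51) for Egr1 and 2.92 (SE 0.27) for Fosl2. Fosb changed by -0.13 (SE 0.43). Between 6 h and 20 h in KO, none of the 10 passed on all arrays, where 15.6% of all genes changed (limma, 0 of the 10 at an unadjusted p under 0.05). On 30 arrays Jun (-1.96, SE 0.45, limma adjusted p = 0.00237) and Maff (-1.95, SE 0.66, limma adjusted p = 0.0339) fell, where 10.8% of all genes fell. On 29 arrays Jun still fell (-1.54, limma adjusted p = 0.00151) and Maff did not pass (-1.45, limma adjusted p = 0.065).

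The comparison of KO with WT, which takes in genotype and strain background together, gave no call in any condition. On saline 0 of the 10 passed where 0.333% of all genes tested did (limma, 1 of the 10, Jun, at an unadjusted p under 0.05). At 6 h of LPS 0 passed where 1.23% did, and at 20 h 0 passed where 0.323% did (limma, 0 of the 10 at an unadjusted p under 0.05 at either time). On 30 arrays the counts were again 0, where 0.349%, 1.37% and 0.521% of all genes passed on saline, at 6 h and at 20 h (limma, 0 of the 10 at an unadjusted p under 0.05 in each). On 29 arrays no gene of the 10 passed either, with 1 on saline (Jun), 2 at 6 h (Jun and Maff) and 4 at 20 h at an unadjusted p under 0.05 (limma). The matching shares of all genes on 29 arrays are not given here, so these counts are not read as a result about the 10 genes.

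The intervals do not exclude sizeable differences. At 6 h of LPS on 30 arrays the KO minus WT difference of Maff was 1.39 log2 units (95% interval -0.08 to 2.86) and that of Ier3 1.42 (95% interval -0.65 to 3.49). Maff read 3.74, 4.40 and 3.33 in KO against 2.15 to 3.06 in WT, and Ier3 read 3.17 to 3.79 against 1.79 to 2.31, so for each gene the 3 KO arrays lay above the 4 WT arrays, as they did in 7.88% of all genes tested. The same held for Jun (0.80, 95% interval -0.21 to 1.80) and Jund (0.49, 95% interval -0.54 to 1.53). These 4 genes had limma adjusted p-values between 0.414 and 0.761 on 30 arrays. The array left out at 6 h, KO replicate 1, was picked by its low response to LPS. It read 1.19 for Maff, -1.10 for Ier3, -0.95 for Jun and 4.43 for Jund, below the WT arrays. On all arrays 0 of the 10 genes were free of overlap, where 810 of the 19204 genes tested lay wholly higher in KO and 581 wholly lower. On 30 arrays 4 of the 10 were free of overlap, where 1514 genes lay wholly higher and 1537 wholly lower. The median differences of the 10 were -0.14 on all arrays and 0.49 on 30. This separation is therefore a description of the remaining arrays and not independent evidence of a difference. The neutrophil markers described further on also had higher sums in those 3 KO arrays (151 to 271) than in the 4 WT arrays (54.0 to 95.5), and their part in these differences was not tested. For Myc the difference was -0.63 (95% interval -1.79 to 0.53), with overlapping groups.
On saline, Jun differed by 1.33 (95% interval 0.08 to 2.59, limma adjusted p = 0.691) on all arrays and by 0.79 (95% interval -0.01 to 1.58, limma adjusted p = 0.84) on 30 arrays, and WT and KO overlapped. At 20 h of LPS the differences on all arrays ran from -0.50 for Fosb to 0.56 for Maff. With KO LPS 20 h replicate 4 left out too, the differences at 20 h were 1.12 for Egr1 (95% interval 0.11 to 2.13, limma adjusted p = 0.447), 1.06 for Maff (95% interval 0.08 to 2.04, limma adjusted p = 0.469), 0.76 for Jun (95% interval 0.17 to 1.35, limma adjusted p = 0.335) and 0.62 for Jund (95% interval 0.03 to 1.21, limma adjusted p = 0.483), with overlapping groups. Of the 10 genes, 9 were then higher in KO at 20 h, with a median difference of 0.66, against 7 and 0.24 on all arrays. KO LPS 20 h replicate 4 was picked by its low response to LPS, so leaving it out raises KO for most of these genes. The differences without it are therefore a description of the remaining arrays and not independent evidence. For Myc the interval at 20 h on all arrays ran from -0.92 to 1.20 and for Jund from -0.74 to 1.08.

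**Figure D3:**
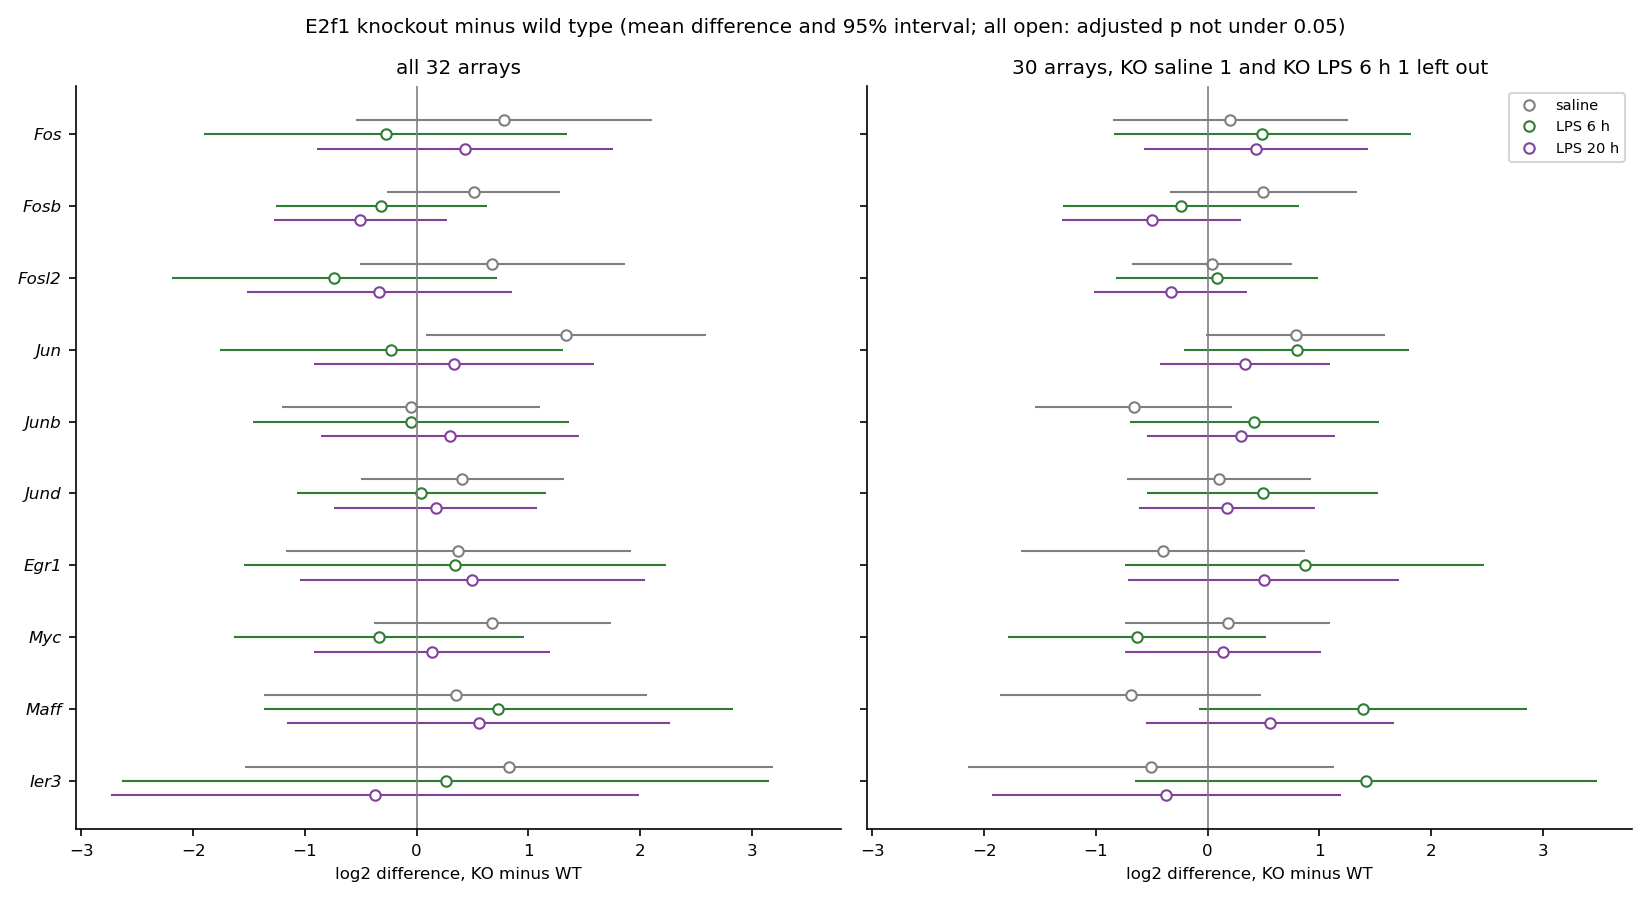
KO minus WT difference of each gene on saline, at 6 h and at 20 h of LPS, in log2 units with 95% intervals from limma, on all 32 arrays (left) and 30 arrays (right). No point passed an adjusted p under 0.05. On the left the saline interval of Jun, 0.08 to 2.59, lies wholly above 0, and on the right every interval spans 0.

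Whether the LPS response itself differed between genotypes was tested as an interaction of genotype and LPS. None of the 10 passed at 6 h, where 0.141% of all genes tested did, or at 20 h, where 0.0417% did (limma on all 32 arrays, 0 of the 10 at an unadjusted p under 0.05 at either time). On 30 arrays the counts were 0 where 0.146% passed at 6 h and 0 where 0.0469% passed at 20 h (limma, 1 and 0 of the 10 at an unadjusted p under 0.05). On those arrays the interaction at 6 h was 2.08 for Maff (95% interval 0.20 to 3.95, limma adjusted p = 0.474) and 0.01 for Jun (95% interval -1.27 to 1.29). With KO LPS 20 h replicate 4 left out too, the interaction at 20 h was 1.36 for Junb (95% interval 0.34 to 2.39, limma adjusted p = 0.44), 1.52 for Egr1 (95% interval 0.09 to 2.94, limma adjusted p = 0.599) and 1.75 for Maff (95% interval 0.36 to 3.14, limma adjusted p = 0.491). On those 29 arrays the interaction at 6 h was 1.93 for Ier3 (95% interval 0.10 to 3.75, limma adjusted p = 0.447). All arrays left out were KO arrays that went against the LPS response, so leaving them out enlarges the KO response by selection. The median interaction at 20 h was -0.44 on all 32 arrays, with 3 of the 10 positive. On 29 arrays it was 0.51, with 8 positive. These intervals are therefore not independent evidence of an interaction.

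The arrays had been scanned on 3 dates, and the date of both arrays left out of the 30 held no WT saline array. Within each of the other 2 dates all 10 genes were higher at 6 h of LPS than on saline in WT, with median log2 changes of 2.87 and 2.87 against 3.15 pooled. At 20 h the medians were 1.496 and 2.67 against 1.89 pooled, again with all 10 higher. In KO at 6 h the medians within those dates were 3.20 and 3.82, against -0.80 within the date that held both arrays that stood apart and 2.17 pooled. At 20 h in KO they were 2.28, 1.25 and 0.86 against 1.65 pooled. With the slide as a block the WT count at 6 h was 6, without Junb and Maff.

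In whole liver RNA, a change in the number of cells of a type and a change in RNA per cell cannot be told apart. All 7 neutrophil markers measured of 8 listed rose at 6 h and at 20 h in WT, with median log2 changes of 4.67 and 4.85, among them Retnlg (5.51, SE 0.95), Mmp8 (5.15, SE 1.03) and, at 20 h, Ngp (6.61, SE 1.02). Their summed signal, in multiples of the 75th percentile, was 0.951 to 8.98 in WT saline, 54.0 to 95.5 in WT at 6 h and 53.1 to 132 in WT at 20 h. WT saline replicate 5, the array with the high Ier3, had the 8.98. Leaving out the arrays that stood apart, the sum was 1.16 to 2.71 in KO saline, 151 to 271 in KO at 6 h and 68.3 to 168 in KO at 20 h. In the arrays that stood apart it was 325 in KO saline replicate 1, 8.72 in KO LPS 6 h replicate 1 and 166 in KO LPS 20 h replicate 4. The last value lay within the range of its group. Ier3, Jun, Egr1 and Maff read low in that array. The part of these cells in the changes of the 10 genes was not tested.

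Other cell type markers moved less evenly in WT. Of all genes tested 12.5% rose and 16.1% fell at 6 h, and 16.3% rose and 20.2% fell at 20 h. Kupffer cell markers gave 1 rise (Marco, 2.47) and 1 fall (Clec4f, -1.20) of 6 at 6 h, and 1 rise and 5 falls at 20 h, among them Vsig4 (-4.20) and Cd5l (-3.94). Sinusoidal endothelial markers gave 1 rise (Lyve1, 3.02) and 2 falls of 6 at 6 h, Gpr182 (-3.75) among them. At 20 h they gave 1 rise and 2 falls, Clec4g (-5.46) and Kdr (-3.65). Stellate cell markers gave 1 rise (Dcn, 0.78) of 5 at 6 h, although their median log2 change was -0.79. At 20 h they gave 1 rise and 3 falls, with Colec11 at -3.82 and Lrat at -2.11. T and NK cell markers gave 2 rises of 4 at 6 h, Gzmb (4.51) and Lck (2.71), and 1 rise at 20 h (Gzmb, 3.52). B cell markers gave 0 calls of 4 at 6 h and 3 falls at 20 h, Ms4a1 (-2.30) and Cd79b (-1.89) among them. Hepatocyte markers gave 0 calls of 5 at 6 h, and 1 rise and 3 falls at 20 h, with Ttr at -3.12 and Cyp2e1 at -0.80. Of 3 lung epithelial markers 2 rose at both times, Sftpd (2.93 and 3.07) and Sftpa1 (1.90 and 4.52).

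Genes around AP-1 also changed in WT. Of 15 other AP-1 and bZIP partners measured, 7 rose and 1 fell at 6 h, where 12.5% of all genes rose and 16.1% fell. Atf3, a stress-induced bZIP factor, changed by 5.58 (SE 1.07, limma adjusted p = 0.000284) and Batf2, a leucine zipper factor known from interferon responses, by 4.48 (SE 0.82, limma adjusted p = 0.000161). At 20 h 6 of the 15 rose and none fell, where 16.3% rose and 20.2% fell. Fosl1, which encodes FRA-1, changed by 2.95 (SE 0.75, limma adjusted p = 0.00268) and Atf3 by 2.81 (SE 0.96, limma adjusted p = 0.0222). The median log2 change of the list was 1.69 at 6 h and 0.71 at 20 h.
Of 20 other immediate early genes measured, 7 rose and 0 fell at 6 h (median log2 change 1.18), with Plk3, a stress-induced polo-like kinase, at 3.56 (SE 0.71) and Egr2, a paralogue of Egr1, at 3.48 (SE 0.86). At 20 h 9 rose and 1 fell (median 0.75), with Btg2, an antiproliferative gene, at 3.31 (SE 0.89) and Egr2 at 2.99 (SE 0.77).
Among MAP kinase genes, which lie upstream of AP-1, 8 of 18 rose and 1 fell at 6 h (median 0.64). Map3k8, the kinase TPL2 of the LPS signal to ERK, changed by 4.47 (SE 0.63, limma adjusted p = 1.11e-05) and Map3k5 (ASK1) by 2.50 (SE 0.37). At 20 h 5 rose and 4 fell (median 0.11), with Map2k6, an activator of p38, at -3.19 (SE 0.54) and Map3k8 at 2.61 (SE 0.56).

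Of 7 regulators of EGR and SRF activity measured, 2 rose and 2 fell at 6 h (median 0.07). Nab2, a corepressor of EGR proteins, fell by 3.80 log2 units (SE 0.58, limma adjusted p = 2.36e-05) and Elk3, an SRF partner, by 2.94 (SE 0.80). At 20 h 2 rose and 1 fell (median 0.31), with Elk3 at -1.91 and Srf at 0.99 (SE 0.27).
In the MYC and MAX network 3 of 11 rose and 4 fell at 6 h (median -0.42). Mxd1, which competes with MYC for MAX, changed by 4.06 (SE 0.58, limma adjusted p = 1.23e-05) and Mycl1 by -3.95 (SE 0.75, limma adjusted p = 0.000226). At 20 h 1 rose and 4 fell (median -0.46), with Mycn at -3.36 (SE 0.93) and Mycl1 at -2.31 (SE 0.67), both paralogues of Myc.
Of 21 growth genes known as MYC-induced, 5 rose and 2 fell at 6 h (median 0.29), with Nol5, a nucleolar protein of ribosomal RNA processing, at 2.49 (SE 0.43, limma adjusted p = 9e-05) and Wdr43, a ribosome biogenesis factor, at 1.70 (SE 0.27). At 20 h 9 rose and 0 fell (median 0.59), with Nol5 at 1.84 (SE 0.38) and Ncl, nucleolin, at 1.66 (SE 0.40). In no list did a gene pass between KO and WT on all 32 arrays in any condition. On 30 arrays Btg2 (2.86, 95% interval 1.46 to 4.26, limma adjusted p = 0.0278) and Srf (1.09, 95% interval 0.53 to 1.66, limma adjusted p = 0.0408) were higher in KO at 6 h of LPS, where 1.37% of all genes passed. On 29 arrays Map2k6 (-1.49, limma adjusted p = 0.0496) passed too at 6 h, as did the neutrophil markers Ngp, Ltf and Camp. KO LPS 6 h replicate 1, left out of both fits, was picked by its low response to LPS. These calls are therefore a description of the remaining arrays and not independent evidence of a difference. Ltf and Camp are named here after their values were seen.

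**Figure D4:**
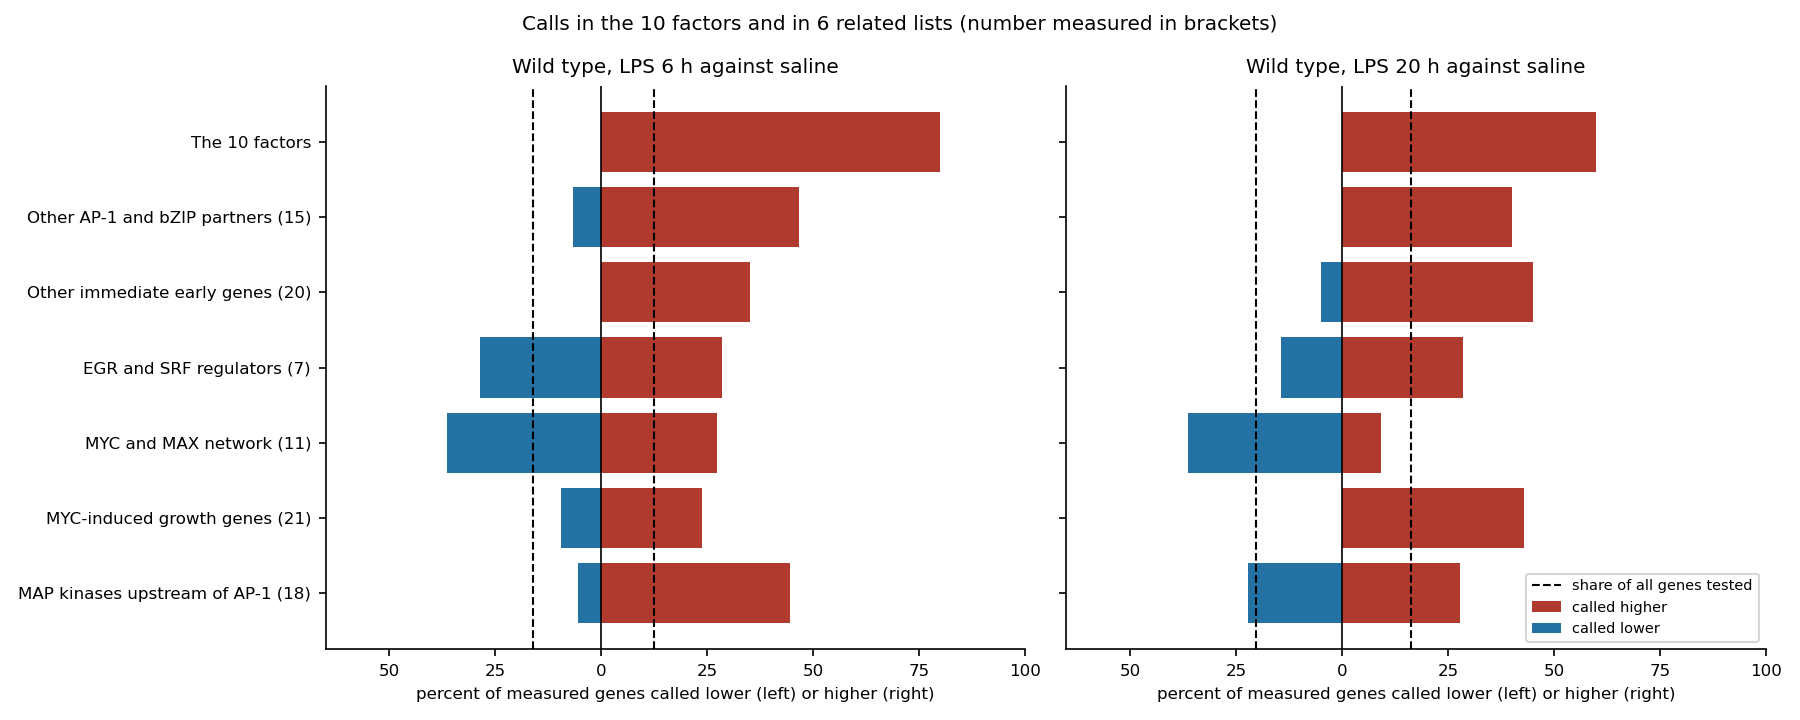
Percent of genes called higher (right) or lower (left) in WT after LPS, for the 10 genes and 6 related lists, with the number measured in brackets. Dashed lines are the shares of all genes tested, 12.5% higher and 16.1% lower at 6 h and 16.3% and 20.2% at 20 h. The MYC and MAX network is the list with more falls than rises at both times.

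The genes whose levels tracked each member most closely over the 32 arrays were found by Pearson's r, which here mostly follows the differences between groups that all share. Ier3 lay close to Plaur (r = 0.98) and Slc10a6 (0.98), and Fosl2 to Osmr (0.98), Inhbb (0.97) and Tmem2 (0.97). Plaur encodes the urokinase receptor and Osmr a receptor for oncostatin M. Jun lay closest to Dusp8 (0.96), a phosphatase of MAP kinases, then Ptpn1 and Abca1 (0.95 each). Maff lay closest to Klf6 (0.95), Trib1 (0.94) and Itpkc (0.94), and Egr1 to Ttc39b, Trib1 (0.93 each) and Axud1 (0.92). Junb lay closest to Fh1 (0.95), Tnfrsf1a (0.93) and Tiparp (0.93), Fos to Lrrc25 (0.92), Rap1b and Ezr (0.91 each), and Jund to Ncdn, Ets2 and Mcart1 (0.92 each). Myc had Gbp4 (0.86), Il1rn (0.86) and Gbp2 (0.85), which are inducible by interferon or inflammation. Fosb, with its dim probe, reached 0.62 at most, with Vmn2r29, then 0.59 with Slc36a3 and 0.57 with Pcsk2.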

How the data were processed

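Each of 32 livers was hybridised to 1 Cy3-labelled Agilent array. The deposited scanner files give a processed signal intensity per spot, spatially and multiplicatively detrended by Feature Extraction 10.7.1.1 per the file headers. The submitters' processed table served as an alternative. Its columns, deposited on a log2 scale, had medians of 8.80 to 8.91 and correlated with log2 of the scanner values at 0.980 to 0.991, in the same direction, and their centring is not known. From the intensities, control spots and flagged outliers were left out, log2 was taken, the 75th percentile of each array was subtracted, and spots of a probe were averaged. A probe had to be well above background on 4 or more of the arrays (28345 of 41174 were), and the brightest probe stood for a gene. The 6 group means were fitted by limma (version 3.58.1, R version 4.3.3) over all arrays at once, and p-values were adjusted by Benjamini-Hochberg over 19204 genes at 0.05. No label says how mice were housed or drawn, so p-values measure the spread between these mice. The 10 genes, the lists and the tests were chosen with earlier results of these data known. Named list genes are the 2 called genes with the largest change per list at 6 h and at 20 h in WT, and neighbours are among the 3 genes with the highest r, of which 1 is not reported here. The fit was tested on simulated data. Alternatives were quantile and normexp normalization, other probe filters, slide, scan date and replicate blocks, and leaving arrays out. The number of arrays limits the precision.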

Additional observations from a re-analysis of the deposited data

Results flagged for a closer look

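Of 60 sets of values (10 genes in 6 groups), 16 held a highest or lowest array whose gap to the nearest other array was a larger part of the range than Dixon's 95% critical value. Chance flags about 1 in 20 such groups. Of the 16, 14 lay in the 3 arrays that stood apart over many genes.

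KO saline replicate 1 was far above the rest of its group in 7 genes. It read 0.43 for Fosl2 (next -3.14), 2.73 for Jun (next 0.07), 8.23 for Junb (next 5.34), 6.81 for Jund (next 5.32), 4.85 for Egr1 (next 1.27), 4.86 for Maff (next 0.09) and 3.95 for Ier3 (next -3.63). KO LPS 6 h replicate 1 was far below its group in 3 genes, at -3.28 for Fosl2, -0.95 for Jun and -1.10 for Ier3. KO LPS 20 h replicate 4 was far below its group in 4 genes, at -0.90 for Jun, -0.21 for Egr1, -0.63 for Maff and -2.09 for Ier3.

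Among WT arrays, saline replicate 6 was high for Junb (5.54, next 5.18) and saline replicate 5 was high for Ier3 (-0.64, next -3.75). No cause was tested for any of these values.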

How the results depend on the processing

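The WT counts of genes that rose were 8 of 10 at 6 h and 6 at 20 h. Over the other normalizations, filters and blocks they ran from 6 to 8 and from 5 to 8. At 6 h the count was 3 within scan date 2. The KO count at 6 h was 4. It was 0 with normexp and quantile normalization, with no filter on dim probes, with the slide block and with the replicate block, and 2 with quantile normalization alone. With the submitters' processed table it was 3 and with a stricter filter on dim probes 5, each measuring 9 of the 10 genes. Averaging the probes of a gene gave 5, as did the scan date block. It was 8 with both arrays left out and 9 with all 3 left out, the latter an alternative chosen after seeing the data, and 8, 8 and 0 within scan dates 1, 2 and 3. The KO count at 20 h, 4, was 9 on 30 and on 29 arrays, and 9, 0 and 0 within scan dates 1, 2 and 3. From 6 h to 20 h the count of 0, where 34.3% of all genes changed in WT and 15.6% in KO, became 1 in WT and 2 in KO on 30 arrays. On those 30 arrays 19.8% and 10.8% of all genes fell. The count became 3 and 1 on 29 arrays, 1 in WT within scan date 1 and 1 in KO within scan date 2. For these last alternatives the shares of all genes are not given here, so the counts are not read as a result about the 10 genes. Within scan date 3, which holds both arrays that went against their labels, 2 of the 10 genes were higher at 6 h in KO, and among the genes called on all arrays Maff (-0.33) and Ier3 (-1.26) reversed. Apart from array removal and fewer arrays per date, the cause was not tested. Scan date 3 held no WT saline, so WT was not compared with saline within it.

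Leaving out 1 array at a time gave 8 to 8 calls in WT at 6 h, 0 to 8 in KO at 6 h, 4 to 9 in WT at 20 h and 3 to 9 in KO at 20 h. Between 6 h and 20 h it gave 0 to 1 in WT and in KO. The 9 at 20 h in KO came without KO saline replicate 1 and without KO LPS 20 h replicate 4. In WT at 20 h the 9 came without KO saline replicate 1, through the shared spread, and the 4 without WT saline replicates 1, 2 or 5 or WT LPS 20 h replicates 3, 4 or 5. Single removals other than the arrays that stood apart never gave over 5 calls in KO at either time. The counts between genotypes and of interactions were 0 in every alternative run.

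Whether replicate numbers pair the mice was not settled. Deviations from group means were correlated between same-numbered arrays, with the arrays that stood apart included. In no pair of groups did all of them correlate above 0.1. Between WT saline and KO saline, and between KO saline and KO LPS 20 h, 4 of 6 did. Between KO saline and KO LPS 6 h, r ran from -0.69 to -0.25, but there the replicate 1 arrays deviated in opposite directions. With the replicate block the calls were 8 and 0 at 6 h and 5 and 3 at 20 h in WT and KO. Fosb, at or near background on most arrays, and Fos on saline are limited by signal.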
